A study of Mus musculus with 18 samples.

Results

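The genes described here encode the accessory subunits of Polycomb repressive complex 2 (PRC2): Jarid2, Aebp2, Mtf2, Phf1, Phf19 and Epop (also named E130012A19Rik). They were found in the deposited expression table by RefSeq accession. All 6 genes were present, as 14 RefSeq transcripts of the 29851 in the table, and as 6 of the 23421 genes left after the transcripts of a symbol were summed. The series comprises 6 RNA-seq libraries, 1 per group, from mouse embryonic stem (ES) cells and from the aggregates they differentiate into, embryoid bodies (EBs). A further 12 ChIP-seq samples are not analysed here. All cells are of 129/Ola background, and ES cells were grown on gelatin in 15% serum with leukemia inhibitory factor (LIF). The ES wild type and ES Eed KO libraries come from E36 cells without a genotype change and with an Eed knock-out. The EB wild type and EB Eed KO libraries come from the same genotypes differentiated without LIF. Those EBs were kept 48 h in hanging drops, given 0.5 µM all-trans-retinoic acid from day 2 to day 5, and cultured to day 9. The E14 shCtrl and E14 shSetd2 libraries come from E14 ES cells transduced with pLKO.1 lentivirus coding for a scrambled or a Setd2-directed hairpin, selected with puromycin and harvested on day 4 after selection. Neither the Eed allele nor the number of clones is given in the labels.

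PRC2 methylates lysine 27 of histone H3 and keeps developmental genes silent. Its core consists of a methyltransferase (Ezh2 or Ezh1), Eed, Suz12 and a histone-binding protein (Rbbp4 or Rbbp7). Accessory subunits bind the core and form alternative complexes. The form called PRC2.2 carries Jarid2 and Aebp2. The form called PRC2.1 carries a Polycomb-like protein, which is Mtf2, Phf1 or Phf19, together with Epop or with a product of Lcor or Lcorl. Polycomb-like proteins bind DNA rich in unmethylated CG dinucleotides and recognise histone H3 methylated at lysine 36, and Jarid2 and Mtf2 are known for helping to bring PRC2 to its targets in ES cells.

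The 3 Polycomb-like genes are paralogues whose levels differed in direction between ES cells and EBs, so their promoter windows are shown. RefSeq windows on GRCm38.p6, from 250 bases before to 50 after a start site, were found for 5 of the 6 members (all but Epop), and CG dinucleotides are in capitals. Mtf2 has 2 such windows, and the files do not say which transcript starts in which.
Mtf2 chr5:108065424-108065723, + strand: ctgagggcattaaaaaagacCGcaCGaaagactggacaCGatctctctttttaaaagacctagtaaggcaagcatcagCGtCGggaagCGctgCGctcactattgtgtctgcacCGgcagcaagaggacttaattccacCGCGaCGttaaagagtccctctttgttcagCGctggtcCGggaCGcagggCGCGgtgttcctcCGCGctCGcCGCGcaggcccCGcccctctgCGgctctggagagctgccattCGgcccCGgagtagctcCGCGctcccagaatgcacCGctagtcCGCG
Mtf2 chr5:108077915-108078214, + strand: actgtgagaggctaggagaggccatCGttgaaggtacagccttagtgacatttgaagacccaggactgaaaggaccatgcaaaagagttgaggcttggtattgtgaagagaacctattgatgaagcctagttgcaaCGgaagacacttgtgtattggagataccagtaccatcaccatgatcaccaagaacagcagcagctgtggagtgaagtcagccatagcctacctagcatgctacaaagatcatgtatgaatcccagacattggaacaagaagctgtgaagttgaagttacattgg
Phf1 chr17:26932877-26933176, + strand: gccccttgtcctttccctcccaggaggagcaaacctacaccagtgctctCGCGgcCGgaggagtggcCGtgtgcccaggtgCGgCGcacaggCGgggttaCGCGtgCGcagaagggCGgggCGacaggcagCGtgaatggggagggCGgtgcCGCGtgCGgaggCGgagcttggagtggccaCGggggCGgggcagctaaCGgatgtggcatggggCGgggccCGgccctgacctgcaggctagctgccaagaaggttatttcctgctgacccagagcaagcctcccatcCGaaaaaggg
Phf19 chr2:34913927-34914226, - strand: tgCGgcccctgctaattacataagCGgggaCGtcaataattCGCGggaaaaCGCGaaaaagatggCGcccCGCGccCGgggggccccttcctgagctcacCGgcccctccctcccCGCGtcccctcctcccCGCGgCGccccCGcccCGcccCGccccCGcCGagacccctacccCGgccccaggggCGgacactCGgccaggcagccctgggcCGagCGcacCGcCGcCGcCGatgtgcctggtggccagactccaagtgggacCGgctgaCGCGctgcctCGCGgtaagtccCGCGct
The windows of Mtf2 differ in sequence class. The upstream window holds 30 CG dinucleotides and the downstream window 2, against a median of 7 over 32841 promoter windows. Phf1 holds 24 and Phf19 holds 38, and 4.95% of all windows hold as many as Phf19. The windows of Jarid2 hold 24 and 23, and the 3 windows of Aebp2 hold 4, 21 and 4. The GC box GGGCGG (either strand, each match holding a CG counted above) occurs 4 times in the Phf1 window, 4 times in the Phf19 window and 1 time in the upstream Mtf2 window, and it occurs in 35.7% of all windows. The octamer ATTTGCAT (either strand, in 1.74% of all windows) is in none of the 9 member windows.

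The authors' unit is FPKM, which divides fragments by transcript length and by the mapped fragments of the library, so levels of different genes can be compared per length. With 1 library per group there is no spread between replicates, and no test, p-value or error is given. Genes reaching 1 FPKM in any of the libraries compared were taken as expressed. A gene was called higher or lower where the difference of log2(FPKM + 1) is at least 1 in size (the size rule below). FPKM totals ranged from 452782 to 598935 per library. The fragment numbers are unknown. Relative depth, read from the most common ratio of low values, ranged from 0.796 (EB Eed KO) to 1.22 (E14 shCtrl) with ES wild type at 1. Setd2 had 16.8 FPKM in E14 shCtrl and 2.59 in E14 shSetd2. Eed had 72.3 and 25.04 FPKM in the wild-type ES and EB libraries against 77.8 and 21.8 in their counterparts labelled Eed KO. Eed mRNA thus does not check those labels, and every direction below that rests on them rests on the labels alone. Names with Eed KO stand for the libraries so labelled. The 8 pluripotency markers summed to between 3304 and 4582 FPKM in the 4 ES libraries, to 239 in EB wild type and to only 26.1 in the EB library labelled Eed KO. Blood markers summed to under 1 FPKM in all 6 libraries.

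Epop, Jarid2 and Mtf2 were the abundant accessory transcripts of ES cells, and in EBs all of them were lower and Aebp2 stood among them. In ES wild type the order of levels was Epop, Jarid2, Mtf2, Aebp2, Phf19 and Phf1, and all 4 ES libraries had this order. In EB wild type it was Jarid2, Aebp2, Mtf2, Epop, Phf1 and Phf19, and the EB library labelled Eed KO had Aebp2, Jarid2, Mtf2, Phf1, Epop and Phf19 in that order. These orders, and the sums below, leave out an unnamed row at the Mtf2 locus, described below. With it counted to Mtf2, Mtf2 had 116 FPKM in E14 shCtrl, above Jarid2 at 103. In EB wild type Mtf2 then had 30.6 FPKM, above Aebp2 at 25.6. The summed FPKM of the 6 genes was 385 in ES wild type and 98.3 in EB wild type, and 412 and 97.1 in the libraries labelled ES Eed KO and EB Eed KO. Neighbours in the EB orders lay close together, such as Phf1 at 10.9 and Epop at 10.3, and without replicates their order is a description of these libraries only.

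**Figure D1:**
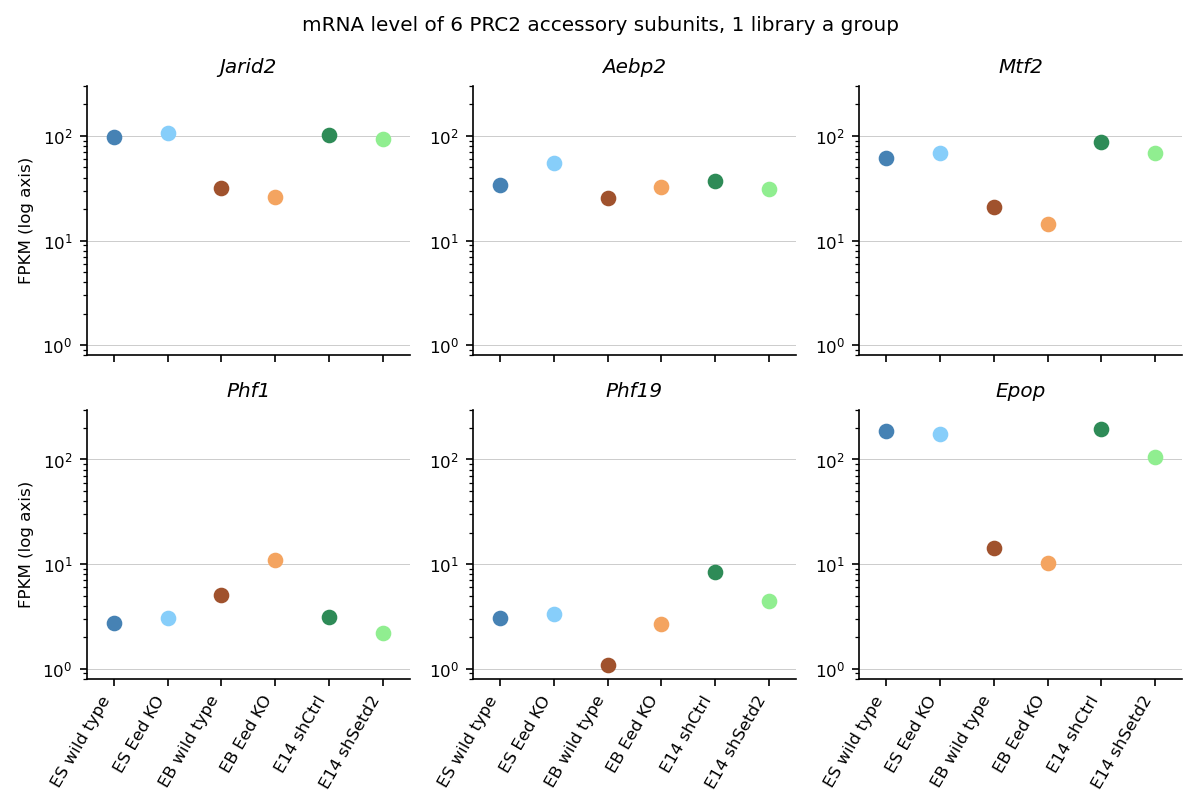
FPKM (log axis) of each PRC2 accessory gene in each of the 6 RNA-seq libraries, 1 point per library, transcripts summed. Jarid2, Mtf2 and Epop sit lower in both EB libraries than in all 4 ES libraries, Phf1 sits higher, Aebp2 spans 25.6 to 55.5, and Phf19 is highest in E14 shCtrl at 8.31.

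Jarid2, the jumonji-family protein of PRC2.2 (mm9 chromosome 13, 44826143 to 45017012), had 96.9 FPKM in ES wild type, 107 in ES Eed KO, 31.6 in EB wild type, 26.3 in EB Eed KO, 103 in E14 shCtrl and 93.3 in E14 shSetd2. The 4 ES libraries lay between 93.3 and 107, and both EB libraries were below all of them. Aebp2, a zinc finger protein of the same complex (chromosome 6, 140571184 to 140625939), had 34.2, 55.5, 25.6, 32.6, 37.2 and 30.9 FPKM in the same order of libraries. Its EB and ES libraries overlapped, and the library labelled ES Eed KO was the highest. The ratio of Jarid2 to Aebp2 FPKM went from 2.83 in ES wild type to 1.23 in EB wild type, and from 1.94 to 0.805 in the libraries labelled Eed KO.

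Among the Polycomb-like genes, Mtf2 (chromosome 5, 108494693 to 108538238) had 61.5, 68.3, 20.8, 14.4, 87.3 and 68.5 FPKM, in the order ES wild type, ES Eed KO, EB wild type, EB Eed KO, E14 shCtrl and E14 shSetd2. Like Jarid2, it was lower in both EB libraries than in every ES library. Phf1 (chromosome 17, 27070072 to 27074835) had 2.74, 3.05, 5.10, 10.9, 3.12 and 2.18, and was higher in both EB libraries than in every ES library. Phf19 (chromosome 2, 34749275 to 34769496) had 3.06, 3.36, 1.08, 2.69, 8.31 and 4.41. It was higher in both E14 libraries than in the 4 E36 libraries. Epop, a PRC2.1 subunit that also binds Elongin BC (chromosome 11, 97488701 to 97491030), had 187, 175, 14.2, 10.3, 193 and 106 FPKM. It had the widest range of the members, 18.9-fold from lowest to highest library, against 2.17-fold for Aebp2.

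Differentiation of wild-type cells went with lower levels of Epop, Jarid2 and Mtf2. Epop was 12.4-fold lower on the FPKM + 1 scale in EB wild type than in ES wild type, a difference of -3.63, and 0.721% of expressed genes had a more negative value. Jarid2 was at -1.59 and Mtf2 at -1.52. Phf19 was at -0.96 and Aebp2 at -0.41, both within the size rule, and Phf1 was at 0.71. With a pseudocount of 0.1 Phf19 was called lower, at -1.42. Of the 6 members 3 were lower by the size rule, where 14.4% of 14156 expressed genes were lower, and 0 were higher, where 20.3% were. The members' median was -1.24 and that of all genes 0.04. With E14 shCtrl in the place of ES wild type, an alternative added after seeing the data, Phf19 was also lower, at -2.16, and the other calls stood, with Epop at -3.68, Jarid2 at -1.67 and Mtf2 at -2.02.

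The same comparison between the libraries labelled Eed KO gave lower Epop, Mtf2 and Jarid2 and higher Phf1. Epop was at -3.96, Mtf2 at -2.17, Jarid2 at -1.99 and Phf1 at 1.55, while Aebp2 was at -0.75 and Phf19 at -0.24. Thus 4 of 6 members were called, 3 lower and 1 higher, where 39.7% of 14089 expressed genes were called, 2672 lower and 2918 higher. With a pseudocount of 5 Phf1 was at 0.98 and no longer called. Markers of cell types changed alongside. All 8 pluripotency markers were lower by the size rule in both differentiation comparisons. The 6 neuron markers summed to 111 FPKM in ES wild type, 91.4 in ES Eed KO, 476 in EB wild type and 7.00 in EB Eed KO, and the 6 mesoderm and fibroblast markers to 31.7, 27.02, 703 and 1694. The part of these shifts in the members' differences was not tested, and in such bulk samples fewer cells of a type and less RNA per cell cannot be told apart.

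**Figure D2:**
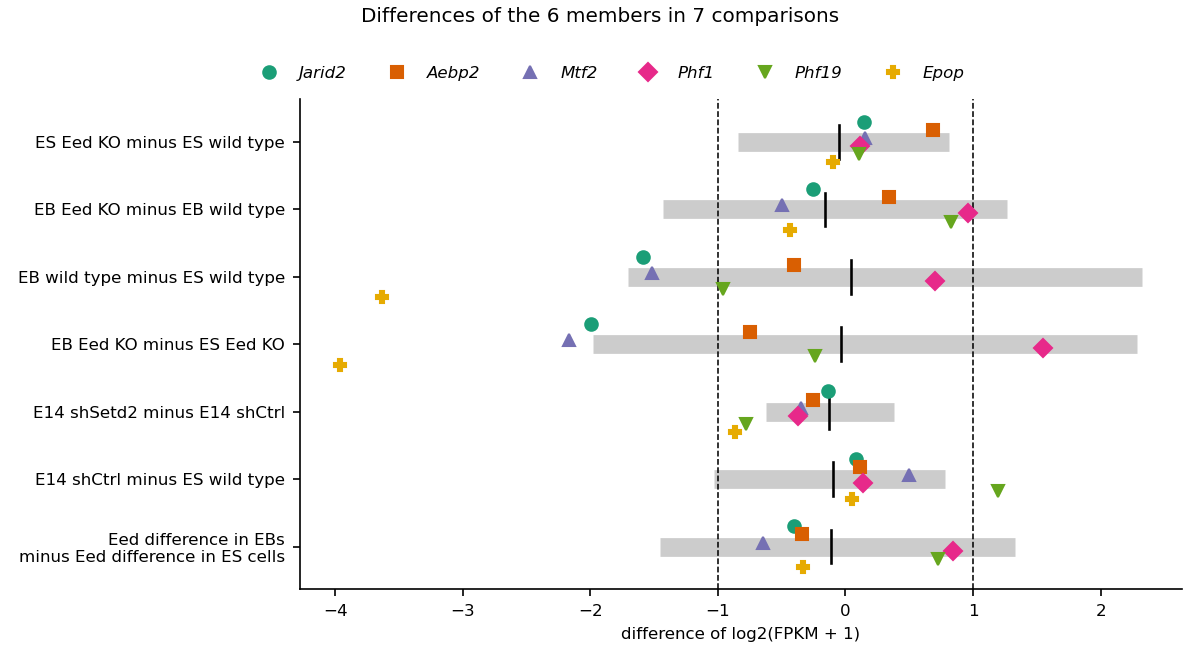
Difference of log2(FPKM + 1) of each member (symbols) in the 7 comparisons, with the median (black line) and the range from percentile 5 to 95 (grey bar) of all expressed genes and the size rule of 1 (dashed). Epop lies at -3.63 and -3.96 in the differentiation comparisons, Phf1 at 1.55 in the libraries labelled Eed KO, and Phf19 at 1.20 in E14 shCtrl against ES wild type.

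The core genes moved less than Epop, as most genes did. Only 2.28% of expressed genes had a larger size of difference than Epop between EB and ES wild type. Suz12, the subunit onto which the accessory proteins assemble, had 91.5 FPKM in ES wild type, 91.8 in ES Eed KO, 48.1 in EB wild type and 30.1 in EB Eed KO. Set against Suz12, Epop had 2.04 FPKM per FPKM of Suz12 in ES wild type and 0.295 in EB wild type, and Jarid2 had 1.06 and 0.656. Mtf2 had 0.672 and 0.432. Aebp2 went the other way, from 0.374 to 0.532, and Phf1 went from 0.0300 to 0.106. In EBs labelled Eed KO the ratios were 1.09 for Aebp2 and 0.361 for Phf1. Suz12 lies on chromosome 11 and Aebp2 on chromosome 6, whose genes had medians of -0.74 and 0.35 between the EB libraries, and the part of these chromosome shifts in the ratios was not tested. Eed itself was lower in EB wild type by the size rule (-1.49), close to Jarid2 (-1.59) and Mtf2 (-1.52). Ezh2, at 50.7 and 43.9 FPKM, was at -0.20, and Rbbp4 and Rbbp7 were at -0.28 and -0.15. Of the PRC2.1 genes Lcorl and Lcor, Lcorl was higher, at 2.66 and 8.57 FPKM (1.39). Lcor, at 1.59 and 4.02 FPKM, was at 0.96, just within the size rule. Of 9 other PRC2 genes, 1 was higher and 2 were lower in EB wild type (Eed and Ezhip, an inhibitor of the complex, which stood at 2.12 and 0.503 FPKM), beside 20.3% and 14.4% of all expressed genes. In EB Eed KO against ES Eed KO, 1 was higher (Lcorl) and 3 were lower (Eed, Suz12 and Ezhip), where 39.7% of all expressed genes were called either way. There Eed was at -1.79, Suz12 at -1.58 and Ezh2 at -0.82, beside Jarid2 at -1.99 and Mtf2 at -2.17. The ratios to Suz12 and the shares that follow were chosen after the values were seen, and they leave out the unnamed row at the Mtf2 locus.

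The makeup of the Polycomb-like mRNA shifted from Mtf2 towards Phf1. Mtf2 made up 91.4% of the summed Polycomb-like FPKM in ES wild type and 77.1% in EB wild type, and 91.4% and 51.6% in the counterparts labelled Eed KO. Phf1 made up 4.08%, 18.9%, 4.09% and 38.8% in the same order, and Phf19 made up 4.55%, 4.02%, 4.49% and 9.60%. These shares leave out the unnamed row at the Mtf2 locus, described below. With it counted, Mtf2 had 30.6 FPKM in EB wild type and 21.1 in EB Eed KO, in place of 20.8 and 14.4. The share of Mtf2 would then be larger and those of Phf1 and Phf19 smaller in each library. The sum of the genes was 67.3 and 74.7 FPKM in the E36 ES libraries and 26.97 and 28.01 in the EB libraries, so the EB libraries differed in makeup and hardly in total. Over all 6 accessory genes, Epop took 48.5% of the FPKM in ES wild type and 14.4% in EB wild type, and Aebp2 8.88% and 26.0%.

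**Figure D3:**
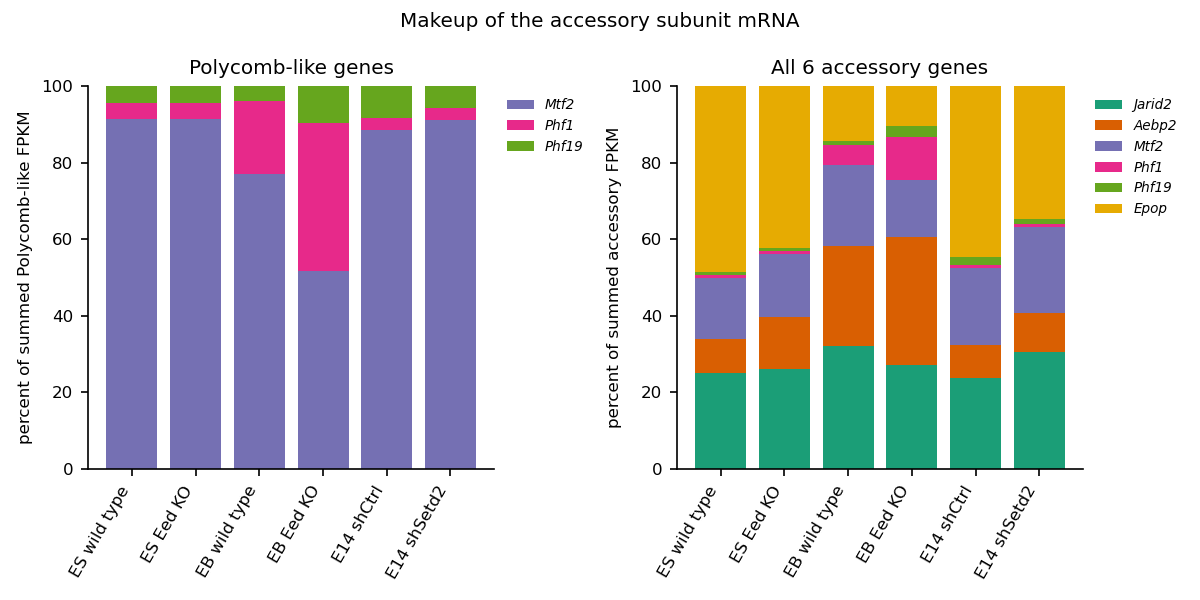
Share of each gene in the summed FPKM of the Polycomb-like genes (left) and of all accessory genes (right), 1 bar per library. The unnamed row at the Mtf2 locus is not counted. Mtf2 takes 91.4% of the left bar in ES wild type and 51.6% in the EB library labelled Eed KO, where Phf1 takes 38.8%.

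The lower Mtf2 sum of EB wild type lay in most of the gene's transcripts but not in all. Transcript NM_013827 had 34.3 FPKM in ES wild type, 38.7 in ES Eed KO, 1.05 in EB wild type, 1.36 in EB Eed KO, 42.9 in E14 shCtrl and 28.9 in E14 shSetd2. Transcript NM_001253877 had 14.2, 14.5, 14.2, 10.4, 22.2 and 22.7. Their differences between EB and ES wild type were -4.10 and -0.00, and their shares of the gene went from 55.8% to 5.05% and from 23.1% to 68.3%. Between EB and ES labelled Eed KO their differences were -4.07 and -0.44, and there every Mtf2 transcript was lower. Of the remaining rows, NM_001253878 had 8.86 and 3.72 in ES and EB wild type, NM_001253879 had 3.90 and 1.75, and NM_001253880 stayed under 1 FPKM. The authors' software divided reads between transcripts that share most of their sequence, so such a split depends on that division. A row of the table with no symbol, NR_045608, covers the same coordinates as Mtf2 and had 21.1, 20.7, 9.78, 6.63, 28.9 and 19.3 FPKM in the order of libraries above. With it counted to Mtf2, the EB wild type difference was -1.41 in place of -1.52.

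Jarid2 and Aebp2 each have 3 transcripts in the table. The main Jarid2 transcript, NM_001205043, had 68.1 FPKM in ES wild type, 75.3 in ES Eed KO, 18.9 in EB wild type and 21.4 in EB Eed KO, and NM_001205044 had 22.4, 24.5, 12.2 and 3.60. The latter made up 23.1% of Jarid2 in ES wild type, 38.6% in EB wild type and 13.7% in EB Eed KO. Between the EB libraries the former was higher by 0.17 and the latter lower by 1.52, while their gene was at -0.26. The Aebp2 transcript NM_009637 kept between 59.5% and 65.9% of its gene in all 6 libraries. Phf1, Phf19 and Epop each have 1 transcript in the table.

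**Figure D4:**
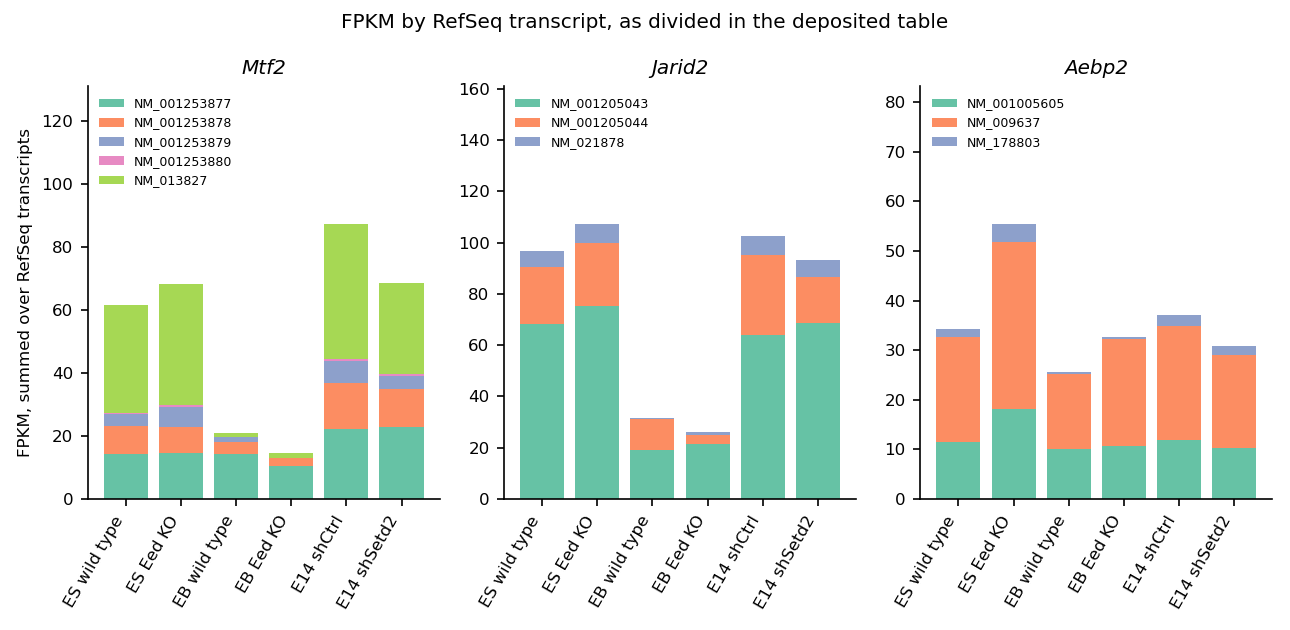
FPKM of Mtf2, Jarid2 and Aebp2 in each library, stacked by RefSeq transcript as the deposited table divides them. The NM_013827 part of Mtf2 is 34.3 FPKM in ES wild type and 1.05 in EB wild type, while NM_001253877 is 14.2 in both.

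Whether loss of a core subunit goes with altered accessory mRNA in undifferentiated cells was examined by setting ES wild type against its counterpart labelled Eed KO. Of the 6 members 0 were called either way, where 6.38% of 12972 expressed genes were called. Aebp2 had the largest value, 0.68 (34.2 to 55.5 FPKM). Jarid2, Mtf2, Phf1 and Phf19 lay between 0.10 and 0.15 and Epop at -0.10. With E14 shCtrl as the control library Phf19 was lower, at -1.10, with 8.31 FPKM of it in E14 shCtrl, and Mtf2 was at -0.35. The other 9 PRC2 genes also had 0 called, with Ezh2 at 0.61 and Suz12 at 0.00. Ezh2 lies on chromosome 6 and Suz12 on chromosome 11, and relative to the medians of those chromosomes, described below, they were at 0.11 and 0.56.

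In EBs the same label comparison placed Phf1 and Phf19 highest and Mtf2 lowest. Phf1 was at 0.96, just within the size rule, at 5.10 and 10.9 FPKM. Phf19 was at 0.82, at 1.08 and 2.69 FPKM, and Aebp2 at 0.34. Jarid2 was at -0.26, Epop at -0.43 and Mtf2 at -0.50. As deposited, 0 of 6 members were called, where 18.0% of 14022 expressed genes were. The median of all these genes was -0.16, and 60.7% of them were below 0. Phf1 was called higher with each of the 3 rescalings (1.07 to 1.11), with a pseudocount of 0.1 (1.08) and relative to its chromosome (1.12). Phf19 was called higher with a pseudocount of 0.1 (1.24) and relative to its chromosome (1.05). All genes called higher went from 1114 as deposited to 1308, 1394 and 1364 with median-of-ratios, upper-quartile and equal-total rescaling. They went to 1545 with a pseudocount of 0.1 and to 1410 relative to the chromosome. As deposited, 19.4% of genes had a larger size of difference than Phf1 and 24.9% than Phf19. The difference between the Eed differences in EBs and ES cells was 0.85 for Phf1, 0.72 for Phf19 and -0.65 for Mtf2, with 0 of 6 called where 18.6% of 14848 genes were. The EB libraries also differed in cell markers. In the library labelled EB Eed KO, 7 of 8 pluripotency, 6 of 6 neuron and 4 of 5 neural progenitor markers were lower. In it 5 of 6 mesoderm and fibroblast markers were higher. Neural progenitor markers summed to 215 and 13.9 FPKM, with Fabp7 listed at 0 in the latter. The 6 extraembryonic endoderm markers summed to 22.8 and 78.9, and 2 of the 2 expressed were higher. Their part in the Phf1, Phf19 and Mtf2 values was not tested.

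Aebp2 and Epop lie on chromosomes whose genes were shifted as a whole. Among genes with FPKM of at least 5 in a library compared, the median on chromosome 6 was 0.50 in the ES comparison (411 genes) and 0.35 in the EB comparison, and that on chromosome 11 was -0.56 (821 genes) and -0.74. Chromosome 3, which holds no member, was also raised, at 0.33 and 0.42. Chromosome 8, which differed between the control ES libraries (-0.45), was at -0.07 and -0.25. The medians of the 16 chromosomes left after setting aside chromosomes 3, 6, 8, 11 and Y ranged from -0.14 to -0.04 in the ES comparison and from -0.22 to -0.12 in the EB comparison. Relative to chromosome 6, Aebp2 was at 0.18 in ES cells and -0.01 in EBs. Relative to chromosome 11, Epop was at 0.46 and 0.30, the opposite sign to its unadjusted values. Chromosome 11 was also at -0.55 in E14 shCtrl against ES wild type, whereas chromosome 6 was at -0.01 there. Jarid2, Mtf2, Phf1 and Phf19 lie on chromosomes with medians between -0.08 and -0.05 in the ES comparison. Chromosomes were set aside after the values were seen, and the part of the chromosome shifts was not tested further.

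**Figure D5:**
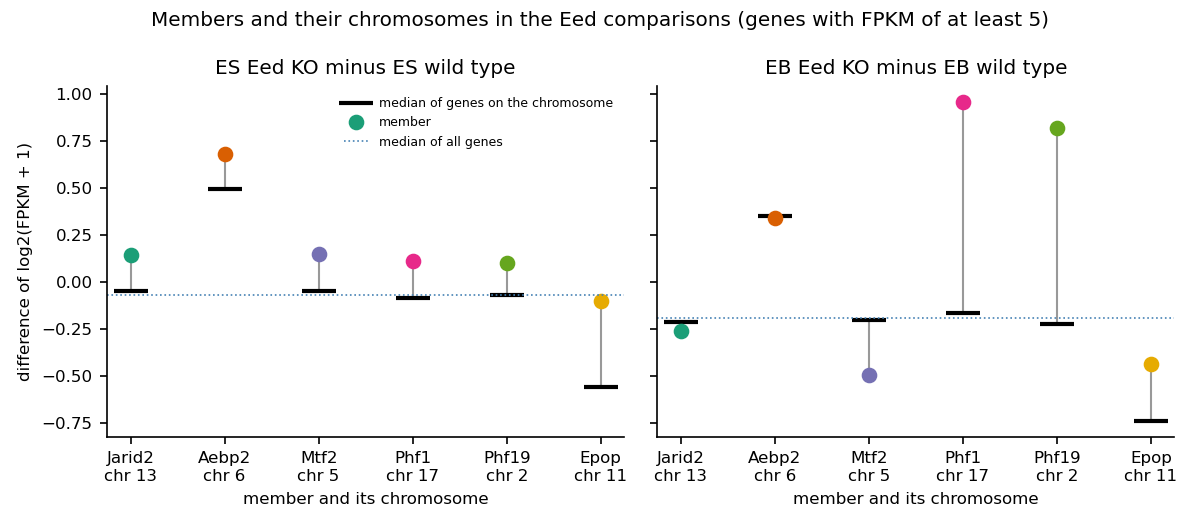
Difference of log2(FPKM + 1) of each member (points) beside the median of genes with FPKM of at least 5 on its chromosome (black bars) and over all chromosomes (dotted) in the Eed comparisons in ES cells (left) and EBs (right). Aebp2 lies near the raised chromosome 6 median, Epop above the lowered chromosome 11 median, and Phf1 and Phf19 far above theirs in EBs.

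The Setd2 comparison concerns the enzyme that trimethylates lysine 36 of histone H3, the mark Polycomb-like proteins recognise. All 6 members had lower values in E14 shSetd2 than in E14 shCtrl as deposited, 5 of them also with each of the 3 rescalings (Jarid2 then lay between 0.00 and 0.04), and 0 were called where 2.02% of 12456 genes were. Epop, at 193 and 106 FPKM, was at -0.86, and 1.92% of genes had a more negative value. Phf19, at 8.31 and 4.41 FPKM, was at -0.78, with 2.61% of genes more negative. Phf1 was at -0.37, Mtf2 at -0.35, Aebp2 at -0.26 and Jarid2 at -0.14. All genes had a median of -0.13, and 71.6% of them were below 0. With median-of-ratios rescaling, which brought the median of all genes to -0.01, Epop was at -0.73 and Phf19 at -0.67. With ES wild type as the control, chosen after seeing the data, Epop was at -0.82 but Phf19 at 0.41 and Mtf2 at 0.15. As deposited, 80 of all genes were higher and 172 lower, and with upper-quartile rescaling 125 and 136. Among the other PRC2 genes Ezhip was at 0.53 and Eed at -0.33, and 0 of 9 were called.

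Control ES libraries that differ in line and handling served as a yardstick. Only the E14 cells are described as transduced with lentivirus and selected with puromycin, so line and handling cannot be told apart. E14 shCtrl against ES wild type had 1 of 6 members higher, Phf19 at 1.20, where 2.96% of 12862 genes were higher. It had 0 members lower, where 704 of those genes were lower. Mtf2 was at 0.50, and Phf1, Aebp2, Jarid2 and Epop lay between 0.05 and 0.14. Relative to chromosome 11, whose median was -0.55, Epop was at 0.60. With a pseudocount of 5 Phf19 was at 0.72 and not called. For Phf19 the distance between these control libraries therefore exceeded its Eed differences in ES cells and EBs. It also exceeded the Setd2 differences of Phf19 (-0.78) and Mtf2 (-0.35), and for Mtf2 it was about the size of the EB Eed difference (-0.50). For Epop, Jarid2 and Mtf2 it was smaller than their differentiation differences.

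Genes with the most similar pattern were found by the root-mean-square distance of centred log2(FPKM + 1) over the 6 libraries, among 9340 or 9341 genes with a mean FPKM of at least 5. For Jarid2 they were Tgif1, a homeobox repressor (0.067), Ddx27, an RNA helicase (0.072), and Rif1, a telomere and replication timing factor (0.084). For Mtf2 they were Zfp57, an imprint maintenance factor (0.098), Got1, a transaminase (0.10), and Polr2e, an RNA polymerase subunit (0.11). Mtf2 and Jarid2 were 0.19 apart. Jarid2 ranked 33rd among the genes nearest to Mtf2, and Mtf2 ranked 115th among the genes nearest to Jarid2. The nearest to Epop were Eprn (0.22), Dusp27 (0.22) and Nodal, a signalling ligand of the early embryo (0.22). Nodal had 29.4 FPKM in ES wild type, 25.3 in ES Eed KO, 1.20 in EB wild type and 0.284 in EB Eed KO. Phf1 was nearest to Arfgap1 (0.11), Ugdh (0.11) and Nucb1 (0.12), Aebp2 to Brpf1, also on chromosome 6 (0.062), Ddhd2 (0.062) and Pdxk (0.068), and Phf19 to Impa2 (0.17), Tfeb (0.19) and Ly75 (0.20). Within a distance of 0.3 there were 1014 genes for Aebp2, 459 for Jarid2, 304 for Phf1, 244 for Mtf2, 31 for Phf19 and 10 for Epop. The distance also depends on how widely a gene ranges, which was 2.17-fold for Aebp2 and 18.9-fold for Epop. The counts therefore do not separate how common a pattern is from its range.

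The libraries do not mark strand, so overlapping genes could mix. Apart from the unnamed row at Mtf2, no row of the table overlaps a member. The nearest genes are Cuta, 82 bases from Phf1, and Dtnbp1, 437 bases from Jarid2. Cuta had 38.2, 54.8, 38.5, 34.3, 53.3 and 37.2 FPKM, in the order of libraries above, and did not share the EB pattern of Phf1. Near Epop, 2410003L11Rik (4494 bases away) had 48.5 FPKM in ES wild type, 6.33 in EB wild type and 2.21 in EB Eed KO, and was lower in EB wild type by 2.76, and Mllt6 (33696 bases away) was at -0.97.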

How the data were processed

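Expression was measured by RNA-seq of poly(A) RNA in 6 libraries (TruSeq RNA version 2 kit, per the labels' protocols). TopHat and Cuffdiff are the tools, and mm9 the genome build, that the submitters' processing notes name. They deposited FPKM per RefSeq transcript, per the file headers. No source used here gives their versions, options, annotation or between-library scaling. Accessions were matched to symbols through a RefSeq table of GRCm38.p6 used for names (29296 of 29851 matched, 555 kept their accession), and the FPKM of a symbol's transcripts on a chromosome were summed. This differs from taking the transcript with the highest mean, which was tried as an alternative, because the division of reads between transcripts moves that value. Starts in the table count from 0 and were written from 1. Differences of log2(FPKM + 1), a pseudocount of 1 that understates changes of weak genes, were computed for 7 comparisons and called at a size of 1. Expression means FPKM of at least 1. Functions were tested on simulated data. Python 3.11.15, numpy 2.4.6, pandas 2.3.3 and matplotlib 3.10.9 were used. The rule for named genes took the members, their transcripts, 9 other PRC2 genes, the targeted genes and the 3 genes nearest to each member. Marker genes are given by counts, and neighbouring genes were added after the values were seen. The members and lists were chosen with earlier results of these data known. Alternatives covered pseudocount, filter, scaling, transcript choice, chromosome medians and control library. Counts over a PRC1 list are not reported here.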

Additional observations from a re-analysis of the deposited data

Results flagged for a closer look

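For Jarid2 and Mtf2 the Eed difference had opposite signs in EBs and in ES cells. Jarid2 was at -0.26 in EBs and 0.15 in ES cells, a gap of -0.40. Mtf2 was at -0.50 and 0.15, a gap of -0.65. All genes had a median of -0.16 in the EB comparison and -0.05 in the ES comparison. Relative to its chromosome, Jarid2 was at -0.05 in EBs and 0.19 in ES cells, and Mtf2 at -0.30 and 0.20. Of all genes compared, 53.1% had a larger gap than Jarid2 and 34.2% a larger gap than Mtf2, so gaps of this size were common. Each side is 1 library against 1 library, so the gap was not tested, and no value reached the size rule. With the transcript of highest mean in place of the sum, the gaps were 0.03 for both genes.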

How the results depend on the processing

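No paired analysis was possible because each group holds 1 library, and no replicate could be left out. Of 436 values of single members under the alternatives, 422 kept their side of the size rule, 11 passed it newly with the same sign and 2 no longer did. The remaining 1, Phf19 in the ES Eed comparison, was not called in the main run and passed the rule with the opposite sign. Of the 422, 17 changed sign without being called. Of 148 counts of called members 12 changed. The count of lower members in EB against ES wild type went from 3 to 4 with a pseudocount of 0.1 and with E14 shCtrl as the control, by Phf19. All lower genes went from 2033 to 2455 and to 1917 under these settings. In the ES Eed comparison the count of lower members went from 0 to 1 with E14 shCtrl as the control, by Phf19, which went from 0.10 to -1.10 (cause: the other control library holds more of it). All lower genes went from 427 to 461. In the EB Eed comparison the count of higher members went from 0 to 2 with a pseudocount of 0.1 and relative to the chromosome median, and to 1 with median-of-ratios, upper-quartile and equal-total rescaling. The counts of all higher genes rose under each of these settings, as given above. With a pseudocount of 5 the count of higher members went from 1 to 0 in EB Eed KO against ES Eed KO and in E14 shCtrl against ES wild type, as a larger pseudocount shrinks weak genes. All higher genes went from 2918 to 1361 and from 381 to 170. For the Eed difference in EBs less that in ES cells, 1 member in place of 0 was higher with a pseudocount of 0.1. The same held with E14 shCtrl as the control. All higher genes went from 1308 to 1763 and to 1163. The lower calls of Epop, Jarid2 and Mtf2 in both differentiation comparisons held under every alternative run. Rescaling to equal totals moved the median of all genes from 0.04 to 0.29 in EB against ES wild type, where the split of all genes went from 2880 higher and 2033 lower to 3640 and 1416. It went from 400 and 427 to 494 and 312 in the ES Eed comparison and from 2918 and 2672 to 3584 and 2018 in EB Eed KO against ES Eed KO. With upper-quartile rescaling it went from 1114 and 1413 to 1394 and 1087 in the EB Eed comparison and from 381 and 704 to 460 and 550 between the control ES libraries. Depth limits Phf19 and Phf1 most, whose FPKM stayed under 11, and fragment numbers behind them are unknown.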
